A study of Mus musculus with 54 samples.

Results

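The interferon response genes described here are 36 mouse genes whose transcription interferons switch on. They were chosen by name, with earlier results of these data known. All 36 were among the 26264 genes of the deposited count tables. They comprise 4 transcription factors, 3 sensors of nucleic acid, the 4 IFIT genes, 4 oligoadenylate synthetase genes, 4 genes for Mx proteins, viperin and tetherin, 2 genes of the ISG15 system, 2 PARP genes, 2 TRIM30 genes, 5 interferon-inducible GTPases, 5 other interferon-induced genes and the chemokine gene Cxcl10.

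Interferons are secreted proteins that alert cells to viruses and other microbes. Type I interferons signal through a receptor with the subunit Ifnar1 to a complex that holds STAT2 and IRF9 and binds the interferon-stimulated response element (ISRE). Interferon gamma, made mainly by T cells and natural killer cells, acts through the gamma-activated site (GAS) of genes such as Irf1. The genes switched on in this way block virus replication, mark proteins and RNA for destruction, or attack membranes around microbes inside cells.

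RNA was sequenced from testis at 35 days and ovary at 30 days after birth, in 54 libraries that make 18 groups of 3, lettered A, B and C. The F1 mice were progeny of dams that drank a drug mixture at dose 1 or dose 2, or control water with 0.001% ethanol, starting 8.5 days post-coitum, and the progeny stayed on that water until they were killed. Dose 1 held 11.3 ng/L of ibuprofen, 90 ng/L of its metabolite 2-hydroxyibuprofen, 22.5 ng/L of the anti-inflammatory drug diclofenac and 2.25 ng/L of the contraceptive estrogen ethinyl-estradiol, and dose 2 held 113, 225, 112 and 45 ng/L in that order. The F2 mice came from crosses of F1 mice and the labels give them no treatment of their own. In the maternal crosses the mother had been exposed to dose 1 or dose 2 and the father was a control, in the paternal crosses the father had been exposed, in the biparental cross both parents had been exposed to dose 2, and in the control cross neither had. The strain is not given in the sources used here, nor whether the libraries of a group come from separate animals or litters.

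Total counts, rounded to 5 digits, ranged between 31554000 and 122400000 a library, with the most in F1 testis dose 1 C (122400000) and F2 ovary control cross C (84721000). The tissue labels matched marker genes: the 7 markers of elongating spermatids summed to a counts-per-million (CPM) level of at least 8320 in every testis library, and the 8 granulosa cell markers to at least 4975 CPM in every ovary library. Some libraries stood apart. F1 ovary control A had a summed level of the spermatid markers of 1390 CPM, against 12.1 to 97.4 in the other F1 ovary libraries. F2 ovary maternal dose 1 C was the farthest from the other F2 ovary libraries on the first principal component over all genes, and F1 testis dose 2 B and C lay at opposite ends of that axis in F1 testis. F2 ovary biparental dose 2 C held a summed level of 14 macrophage markers of 982 CPM, against 267 to 476 in the other F2 ovary libraries, and of 6 B cell markers of 49.9, against 4.17 to 7.29.

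Some promoters with a match to the ISRE or the GAS, the elements through which STAT and IRF proteins act, are shown first. Sequences come from RefSeq (mouse build GRCm38.p6, from 250 bases before to 50 after each start), which had 26 of the 36 genes. The core of the ISRE is GAAA followed by any 2 bases and another GAAA. A gene was counted if any of its promoters held a match on either strand. This core occurred in 18 of these 26 genes (69.2%), against 1079 of all 27018 genes with a promoter of the same length (3.99%). The palindromic GAS letters TTCNNNGAA, searched in the same way, occurred in 7 of the 26 (26.9%), against 2581 of all (9.55%). Both occurred in 4 of the 26 (15.4%), against 166 of all (0.614%). Irf7, Irf9, Oasl2, Ifi44 and Xaf1 had a promoter in the source and neither match. Ifi27 and Parp14 were among the genes without a promoter there. A match describes letters and not a bound site. The windows below run 5′ to 3′ on the strand of the gene, and capitals mark the bases inside a match, with overlapping matches run together.
Igtp, chr11:58199491-58199551 (+): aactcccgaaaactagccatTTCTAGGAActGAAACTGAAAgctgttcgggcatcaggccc
Irgm1, chr11:48871421-48871470 (-): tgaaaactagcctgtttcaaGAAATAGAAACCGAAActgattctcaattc
Gbp2, chr3:142620584-142620633 (+): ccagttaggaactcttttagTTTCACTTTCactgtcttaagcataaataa
Gbp3, chr3:142559979-142560034 (+): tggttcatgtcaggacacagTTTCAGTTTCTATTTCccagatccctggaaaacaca
Ifit1, chr19:34640765-34640833 (+): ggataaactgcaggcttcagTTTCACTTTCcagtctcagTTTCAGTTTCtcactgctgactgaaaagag
Ifit3, chr19:34583353-34583436 (+): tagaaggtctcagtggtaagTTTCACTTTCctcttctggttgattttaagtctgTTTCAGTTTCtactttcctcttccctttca
Isg15, chr4:156200855-156200916 (-): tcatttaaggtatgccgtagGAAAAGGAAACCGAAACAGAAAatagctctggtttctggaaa
Bst2, chr8:71537567-71537628 (-): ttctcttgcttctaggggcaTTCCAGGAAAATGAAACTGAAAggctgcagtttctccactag
Irf1, chr11:53769904-53769952 (+): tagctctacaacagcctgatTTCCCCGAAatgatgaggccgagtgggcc
Trim30d, chr7:104507861-104507910 (-): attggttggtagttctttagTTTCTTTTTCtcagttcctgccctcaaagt

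Igtp and Bst2 had a GAS and an ISRE core close together, Irf1 a GAS only, and the others ISRE cores, written as TTTC, 2 bases and TTTC where the match lay on the opposite strand. In Isg15, 3 ISRE cores overlapped. The window of Ifit3b (chr19:34607749-34607832) was identical to that of Ifit3 at 84 of 84 bases, and that of Trim30a (chr7:104465200-104465249) to that of Trim30d at 50 of 50. These pairs also share transcript sequence, to unequal extents. In the GENCODE vM21 transcripts, 31.7% of the windows of 100 bases in Ifit3 occurred in Ifit3b and 27.4% of those in Ifit3b occurred in Ifit3. Counts of that pair could therefore be split between them. For the TRIM30 pair it was 4.79% of the windows of Trim30a and 5.53% of those of Trim30d. Another 40.9% of the windows of Oas1a occurred in Oas1g, and 23 of the 36 genes shared no window with any other gene. In vM21, 8 of the 36 have exons that overlap a gene on the opposite strand, among them Dhx58 with Dhx58os, Irf7 with Phrf1, Parp9 with Dtx3l and Cxcl10 with Art3. No source used here states whether strand was used in counting, so reads of such partners cannot be told apart.

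Ovary held more of most of these transcripts than testis. Levels are given as CPM on library sizes scaled by the trimmed mean of M values, and each tissue and generation was scaled separately, so levels set across tissues are a description. In 26 of the 36 genes every ovary library was above every testis library, in 9 the ranges overlapped and in 1 every testis library was above. The median of Bst2, which encodes the virus-tethering membrane protein tetherin, was 210 CPM over the ovary libraries and 3.66 CPM over the testis libraries, a ratio of 57.4. The ratio was 51.6 for Gbp2, a GTPase that coats microbe-containing vacuoles, and 46.7 for Cxcl10, a chemokine that draws in T cells. Dhx58, which encodes the RNA sensor LGP2, went the other way. Its level was 3.32 to 7.98 CPM in ovary libraries and 40.3 to 100 CPM in testis libraries, so that the tissues did not overlap. Mx1, an antiviral GTPase gene, had a median of 1.08 CPM in ovary and 2.86 CPM in testis libraries, a ratio of 0.378, with ranges that overlapped. Because these are bulk samples, fewer cells of a type and less RNA per cell cannot be told apart.

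Per kilobase of the longest GENCODE vM21 transcript, the leading genes differed between the tissues. In F1 ovary the highest medians were 225 CPM per kilobase for Bst2, 105 for Ifi27, which encodes a small membrane protein, and 25.9 for Irf1. In F1 testis they were 25.7 CPM per kilobase for Dhx58, 17.8 for Ifi27 and 7.65 for Bst2. The same 3 genes led in the same order in the F2 libraries of each tissue.

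The interferon ligands themselves were near the limit of detection. Ifna1 had no count in any of the 54 libraries, which allows at most 0.0248 to 0.0971 CPM a library (3 counts, counting error only), and Ifnb1 had 2 counts in all, both in F2 ovary. Ifnab was the only one of the 21 ligands that passed the filter on low counts in testis, with 0.129 to 0.538 CPM in F1 testis and 0.318 to 0.867 CPM in F2 testis. Ifng, which encodes interferon gamma, reached 1.48 CPM in F2 ovary biparental dose 2 C and was at 0.302 CPM or less in every other library. The receptor subunit gene Ifnar1 had a median of 134 CPM in F1 ovary and 29.8 CPM in F1 testis, and the receptor-bound kinase gene Jak1 had 820 CPM in F1 ovary and 47.5 CPM in F1 testis.

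Mean levels of the 36 genes per library are the base of what follows. On the log2 CPM scale the mean over the 36 genes lay between 2.49 and 4.03 in ovary libraries and between 0.13 and 1.02 in testis libraries. Within F1 testis it was 0.42, 0.28 and 0.32 in controls, 0.92, 0.40 and 1.02 at dose 1 and 0.36, 0.25 and 0.38 at dose 2, so that dose 1 A and C stood above the rest and dose 1 B did not. Within F1 ovary it was 2.76, 3.03 and 2.64 in controls, 2.67, 2.77 and 3.34 at dose 1 and 3.72, 2.85 and 3.16 at dose 2, with dose 2 A highest. In F2 ovary biparental dose 2 C (4.03) was highest and maternal dose 1 C (2.49) lowest, and the control cross spread widely (2.77, 3.44 and 3.67).

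**Figure D1:**
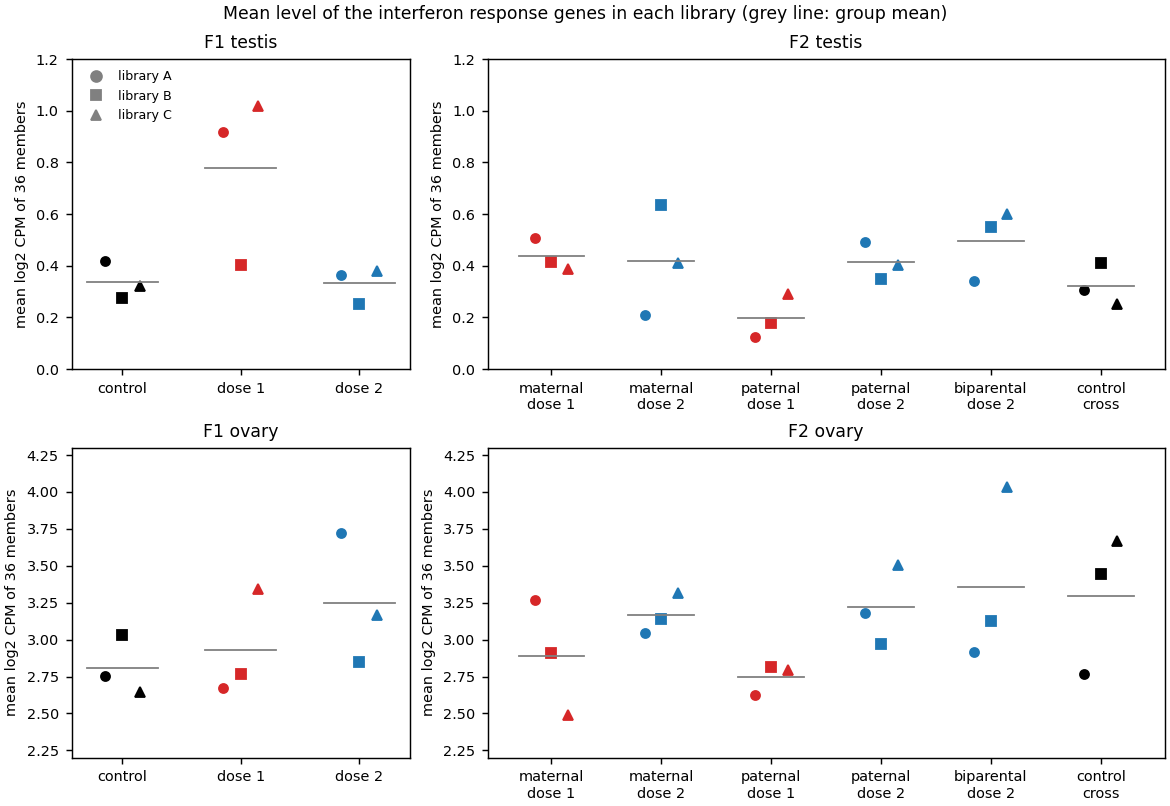
Mean log2 CPM over the 36 interferon response genes in each of the 54 libraries, by tissue, generation and group, with 1 point a library. Ovary libraries lie between 2.49 and 4.03 and testis libraries between 0.13 and 1.02, and F1 testis dose 1 A and C, F1 ovary dose 2 A and F2 ovary biparental dose 2 C stand highest in their panels.

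None of the 36 genes passed the test in any comparison. With edgeR's quasi-likelihood test and Benjamini-Hochberg adjustment over all genes, 0 of the 36 had an adjusted p under 0.05 in the 20 comparisons. At an unadjusted p under 0.05 the counts ran between 0 and 11 genes a comparison, as given below. DESeq2 called 1 gene in 2 of the 20 comparisons, Igtp in F1 testis and Irf9 in F2 testis, and 0 in the other 18, where its share over all genes in the 20 comparisons was 0.0115% to 3.78%. The values below therefore describe libraries whose group differences did not pass the test. Many of the 36 genes were high or low in the same libraries. Counts of genes above or below 0 are therefore not counts of separate observations, and each group has 3 libraries.

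In F1 testis the question was whether exposure from mid-gestation on altered these genes. By log2 fold change dose 1 was above control for nearly all of these genes, but dose 1 B was above the median library in only 11 of 36. The plain mean CPM was lower at dose 1 than in controls for Mx2 (1.95 and 2.29), Ifit1 (0.422 and 0.428) and Oas2 (0.525 and 0.536). Of the 34 genes tested (Rsad2 and Cxcl10 did not pass the filter on low counts), 33 had a log2 fold change above 0, against 48.1% of all 19025 genes tested, and the median was 0.38, against -0.01 over all genes. With edgeR, 6 were higher and 0 lower at an unadjusted p under 0.05, where 2.14% of all genes were higher and 1.04% lower. At an adjusted p under 0.05 it was 0 of 34 (0.021% of all genes), and 0 with DESeq2. In 6 genes every dose 1 library was above every control library, a pattern that 6.19% of all genes showed, and in 0 genes was every dose 1 library below, against 6.22%. The 6 were Igtp, Irgm1, Parp14, Xaf1, Bst2 and Ifit3b.

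Igtp, a GTPase of the immunity-related family, had 3.01, 1.39 and 4.38 CPM in dose 1 testes, against 1.08, 1.06 and 1.12 CPM in control testes. The groups did not overlap, and dose 1 B was much nearer to the controls than A and C were. Its mean was 2.92 ± 1.49 CPM in dose 1 and 1.09 ± 0.0317 CPM in control testes (SD, n = 3 each), with a log2 fold change of 1.44 ± 0.39 (SE) and an edgeR adjusted p of 0.998. In vM21 the exons of Igtp overlap those of Irgm2 on the same strand, and 5.67% of its windows occurred there.

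Gbp3, a guanylate-binding protein gene, had 2.71, 1.16 and 3.07 CPM in dose 1 testes, against 1.29, 0.894 and 0.904 CPM in controls. The same A and C libraries were high, and dose 1 B lay inside the control range. The log2 fold change was 1.18 ± 0.35 (SE), with an edgeR adjusted p of 0.998. Parp14, which adds ADP-ribose to proteins, had 3.85, 5.40 and 4.14 CPM in dose 1 testes, against 3.02, 2.62 and 1.96 CPM in controls. Here dose 1 B was the highest library and the groups did not overlap. This was a log2 fold change of 0.82 ± 0.25 (SE), with an edgeR adjusted p of 0.998.

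Irgm1, another immunity-related GTPase, had 3.64, 2.23 and 4.81 CPM in dose 1 and 2.23, 1.79 and 1.93 CPM in control testes, and the groups met at 2.23 CPM. Gbp2 had 2.74, 1.13 and 4.12 CPM in dose 1, against 1.63, 1.13 and 1.34 CPM in control testes, with dose 1 B again at the control level. Xaf1, which binds the apoptosis inhibitor XIAP, had 2.93, 5.66 and 3.76 CPM in dose 1, against 1.89, 2.04 and 2.66 CPM in control testes. Like Parp14 it was highest in dose 1 B. Igtp, Gbp3, Irgm1 and Gbp2, all GTPase genes, were thus lowest in dose 1 B among the dose 1 libraries, and Parp14 and Xaf1 were highest there.

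By role, all 5 GTPases had a positive log2 fold change (median 0.99) and 4 of them an unadjusted p under 0.05. The medians were 0.57 for the 2 PARP genes, 0.38 for the 4 IFIT genes, whose products bind foreign RNA, 0.34 for the 4 oligoadenylate synthetase genes, whose products switch on RNase L, and 0.22 for the 4 transcription factors. Dose 1 A or dose 1 C was the highest F1 testis library for 22 of the 36 genes. Dose 1 C was above the median library in 35 genes, dose 1 A in 27 and dose 1 B in 11. Dose 1 C was also the most deeply sequenced library, and the part of depth in these values was not tested.

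Genes of the pathway outside the 36 were read from lists chosen with earlier results of these data known. Of 22 further interferon gamma-induced genes, 20 were tested in dose 1 against control. A positive log2 fold change was found in 17 of them (median 0.86), where 48.1% of all genes had one. At an unadjusted edgeR p under 0.05, 10 were higher and 1 lower, where 2.14% of all genes were higher and 1.04% lower. Of 35 further type I interferon-induced genes, 32 were tested and 19 had a positive log2 fold change (median 0.05), with 1 higher. The 6 receptor genes had a median of -0.03. With edgeR 0 genes of any of these lists passed the adjusted threshold in any of the 20 comparisons. H2-K1, a class I antigen-presenting molecule, was the highest of the gamma-induced list in F1 testis, with 41.4 CPM in the lowest library, a median of 77.9 and 144 CPM in the highest, dose 1 C.

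Markers of immune cells were read in the same libraries. The 14 macrophage markers summed to 413, 528 and 447 CPM in dose 1 testes, against 353, 420 and 438 CPM in controls, and 7 of the 14 had a positive log2 fold change, with none at 0 in any library. Aif1 made up most of that sum, with a median of 278 CPM over the F1 testis libraries, while the median of the macrophage receptor gene Csf1r was 12.8 CPM. T cell markers (7 in the table) summed to 18.4 to 39.0 CPM in dose 1 and 11.6 to 23.1 CPM in control testes, with the highest value in dose 1 B and not in A or C. Cd3d led that sum at a median of 13.0 CPM, and its partners Cd3e and Cd3g had medians of 0.170 and 0.106 CPM. The elongating spermatid markers summed to 16224, 23849 and 19159 CPM in dose 1 and 9677, 14190 and 19589 CPM in control testes, and the lowest and highest F1 testis libraries of that sum, dose 2 B and dose 2 C, were also lowest and highest in the macrophage sum (348 and 712 CPM). These sums therefore cannot be read as amounts of immune cells in testis. The 8 natural killer cell markers summed to less than 1 CPM in every F1 testis library, with 0 to 4 of them at 0 in dose 1 and 4 at 0 in each control library. Their part in the values of the interferon response genes was not tested.

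The dose 1 values in testis depended on single libraries. Without dose 1 B the median over the 34 genes was 0.61 and 11 had an unadjusted p under 0.05, where 2.09% of all genes did in that fit. Without dose 1 C the median was 0.28 and 4 had one (2.17% of all genes), and without control B 3 had one (2.59%).

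Dose 2 testes lay nearer to the controls. Against control, 21 of 34 genes had a positive log2 fold change (52.2% of all genes) and the median was 0.06, against 0.01 over all genes. With edgeR 0 of 34 passed at an adjusted p under 0.05 (0.00526% of all genes), 0 with DESeq2, and 1 was lower and 0 higher at an unadjusted p under 0.05, where 0.967% of all genes were lower and 0.967% higher. In 1 gene every dose 2 library was above every control library (1.79% of all genes) and in 3 below (2.32%). The IFIT genes were on the low side, with 0 of 4 above 0 and a median log2 fold change of -0.66.

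Ifit3 had 0.296, 0.280 and 0.292 CPM in dose 2 testes, against 0.407, 0.532 and 0.684 CPM in controls. The groups did not overlap and the dose 2 libraries were close to each other at a low level. On the log2 scale the fold change was -0.90 ± 0.39 (SE), with an edgeR adjusted p of 0.982. Ifi35, which encodes a leucine-zipper protein, had 4.05, 3.42 and 4.96 CPM in dose 2 and 2.71, 3.57 and 2.84 CPM in control testes. Xaf1 had 4.10, 2.26 and 3.69 CPM in dose 2 testes, against the control values given above. In both genes the groups overlapped, and their edgeR adjusted p was 0.982. Leaving out dose 2 B gave 7 genes with an unadjusted p under 0.05, but 17.2% of all genes then had one, and leaving out control A gave a median of 0.17.

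Set directly against each other, dose 2 testes had lower values than dose 1 testes. Of 34 genes, 4 had a positive log2 fold change and the median was -0.42, against 0.04 over all genes, where 56.9% were above 0. This comparison shares its dose 1 libraries with the one against control. With edgeR 6 genes were lower and 0 higher at an unadjusted p under 0.05 (1.83% and 1.48% of all genes), and 0 passed at an adjusted p under 0.05 (0.0263%). DESeq2 called 1 gene, Igtp, with an adjusted p of 0.0256, and it called 0.121% of all genes. In 4 genes every dose 2 library was below every dose 1 library (4.16% of all genes) and in 1 above (3.57%). Without dose 1 A, dose 1 C or dose 2 C 3 genes had an unadjusted p under 0.05 (2.01%, 1.85% and 5.39% of all genes in that order), and without dose 1 B 11 had one (2.71%).

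Igtp had 0.908, 0.624 and 1.06 CPM in dose 2 testes, against the 3.01, 1.39 and 4.38 CPM of dose 1 testes. The groups did not overlap, and the log2 fold change was -1.78 ± 0.39 (SE), with an edgeR adjusted p of 1. Ifit3 had 0.296, 0.280 and 0.292 CPM in dose 2 testes, all below the 0.824, 0.453 and 1.12 CPM of dose 1 testes, and its log2 fold change was -1.50 ± 0.38 (SE), with an edgeR adjusted p of 1. Parp14 had 3.15, 2.99 and 2.04 CPM in dose 2 testes, all below the dose 1 values, with a log2 fold change of -0.71 ± 0.25 (SE) and an edgeR adjusted p of 1. The 3 genes with the highest testis levels behaved otherwise. Dhx58 had 50.6, 52.1 and 66.4 CPM in controls, 62.1, 67.0 and 71.8 CPM at dose 1 and 60.4, 40.3 and 100 CPM at dose 2, and the dose 2 range covered the others. The elongating spermatid markers spread in the same libraries, at 9677, 14190 and 19589 CPM in controls, 16224, 23849 and 19159 CPM at dose 1 and 18347, 8320 and 28831 CPM at dose 2, and their part in the Dhx58 values was not tested. Ifi27 had 14.2, 15.5 and 17.4 CPM in controls, 15.2, 19.7 and 19.3 CPM at dose 1 and 20.8, 13.3 and 22.7 CPM at dose 2. Stat2, a subunit of the ISRE-binding complex, had 10.1, 9.34 and 6.48 CPM in controls, 10.6, 8.57 and 10.1 CPM at dose 1 and 8.78, 10.2 and 6.52 CPM at dose 2. In these 3 abundant genes all dose groups overlapped.

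**Figure D2:**
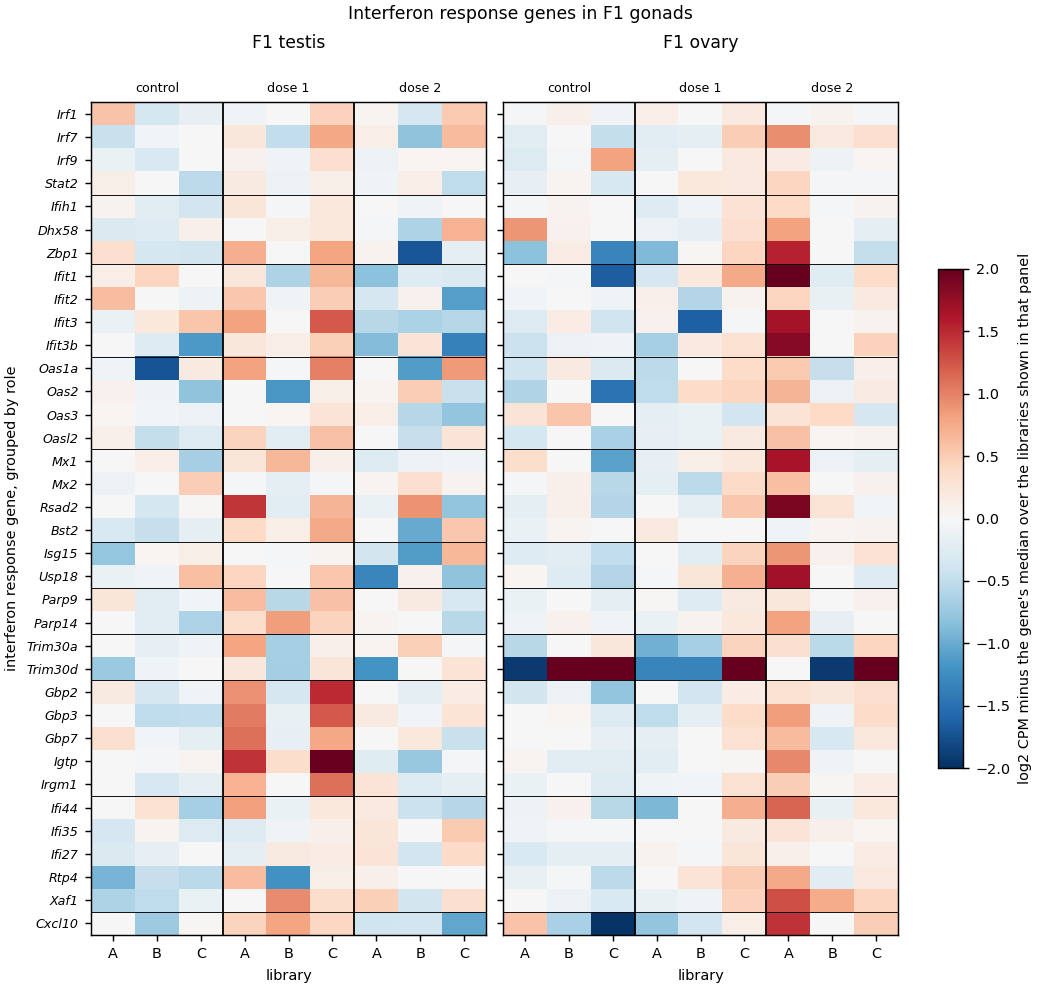
Log2 CPM of each interferon response gene in every F1 library minus the median of that gene over the F1 libraries of the tissue, with genes down the page by role, libraries across in the order control, dose 1, dose 2, and colours that saturate at 2 on the log2 scale. In testis dose 1 A and C carry most of the high values, Igtp among them, and in ovary dose 2 A does, led by the IFIT genes.

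In F1 ovary the higher values were at dose 2. Of 36 genes tested, 32 had a positive log2 fold change against control, where 45% of all 17896 genes were above 0, and the median was 0.44, against -0.02 over all genes. With edgeR 10 genes were higher and 0 lower at an unadjusted p under 0.05 (1.71% and 2.04% of all genes), while 0 passed at an adjusted p under 0.05 (0% of all genes), and 0 with DESeq2. In 9 genes every dose 2 library was above every control library (4.12% of all genes) and in 0 below (3.79%). These 9 were Irf7, Ifit3b, Oasl2, Isg15, Gbp2, Irgm1, Ifi35, Ifi27 and Xaf1.

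Xaf1 had 18.5, 12.7 and 10.3 CPM in dose 2 ovaries, against 7.57, 6.99 and 6.15 CPM in control ovaries. Every dose 2 library was above the controls, with A highest. Its mean was 13.8 ± 4.25 CPM in dose 2 and 6.90 ± 0.717 CPM in control ovaries (SD, n = 3 each), with a log2 fold change of 1.00 ± 0.25 (SE) and an edgeR adjusted p of 0.814. Ifi27 had 110, 102 and 114 CPM in dose 2 ovaries, against 82.7, 89.6 and 89.5 CPM in controls. The groups did not overlap and each was tight. The log2 fold change was 0.32 ± 0.08 (SE), with an edgeR adjusted p of 0.814. Gbp2 had 70.5, 66.5 and 71.3 CPM in dose 2 ovaries, against 43.9, 52.1 and 32.8 CPM in controls, and the groups did not overlap. This was a log2 fold change of 0.69 ± 0.18 (SE), with an edgeR adjusted p of 0.814.

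The IFIT genes had the largest median change of any role with more than 1 gene, 1.09 on the log2 scale, and all 4 were above 0. Ifit1 had 9.37, 1.54 and 2.38 CPM in dose 2 ovaries, against 1.84, 1.79 and 0.559 CPM in controls. A single library, dose 2 A, was far above all others, and dose 2 B lay inside the control range. Its log2 fold change was 1.67 ± 0.73 (SE), with an edgeR adjusted p of 0.814. Usp18, which removes the ISG15 tag, Rsad2, which encodes viperin, and Mx1 were likewise highest in dose 2 A, at 6.15, 6.03 and 3.32 CPM in that order. Dose 2 A was the highest F1 ovary library for 27 of the 36 genes.

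Other roles with more than 1 gene had smaller median changes. The median log2 fold change of dose 2 over control was 0.90 for the ISG15 system, 0.63 for the Mx proteins, viperin and tetherin, 0.50 for the GTPases and 0.42 for the oligoadenylate synthetases. Bst2, the most abundant gene, and Irf1 did not share the higher values at dose 2. Bst2 had 163, 184 and 178 CPM in controls, 205, 178 and 177 CPM at dose 1 and 168, 185 and 187 CPM at dose 2. Irf1 had 54.6, 58 and 53.8 CPM in dose 2, against 53.6, 59.3 and 52.5 CPM in control ovaries. In both genes the groups overlapped. Stat2, with a median of 65.2 CPM over the F1 ovary libraries, had 52.0 to 67.9 CPM in controls. It had 65.2 to 75.8 CPM at dose 1 and 63.2 to 88.1 CPM at dose 2, again with overlap. Of the further gamma-induced genes 19 of 20 had a positive log2 fold change (median 0.35, 2 higher at an unadjusted p under 0.05), and of the further type I-induced genes 29 of 35 (median 0.16, 5 higher). Over all genes 45% were above 0, and 1.71% were higher at that threshold.

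The set of genes with low p in dose 2 ovaries rested on few libraries. Without dose 2 A the median was 0.16 and 3 genes had an unadjusted p under 0.05 (4.51% of all genes), and without control C 3 had one as well (8.79%). Without dose 2 B 15 had one (2.65%). Without control A, the ovary library with spermatid transcripts, the median was 0.48 and 8 had one (3.41%). In dose 2 A the macrophage markers summed to 447 CPM and the natural killer cell markers to 4.43 CPM, against 310 to 397 and 2.54 to 3.41 CPM in control ovaries. Lyz2 led the macrophage sum in dose 2 A at 174 CPM, against a median of 116. Csf1r, Fcgr1, Cx3cr1 and Itgam were also highest there. Adgre1, Cd68, Mrc1, Cd163, C1qa, C1qb, C1qc, Mertk and Aif1 were highest in other F1 ovary libraries. Aif1 had 29.7 CPM in control A, against a median of 3.69. The 7 adipocyte markers summed to 95.4 CPM in dose 2 A, against 29.2 to 45.9 CPM in the other F1 ovary libraries. The 8 markers of the ovarian surface epithelium summed to 65.2 CPM in control C, against 135 to 203 CPM in the other F1 ovary libraries. The part of these cells in the values was not tested.

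Dose 1 ovaries lay nearer to the controls. Of 36 genes 28 had a positive log2 fold change (49.5% of all genes) and the median was 0.13, with 1 gene higher and 0 lower at an unadjusted edgeR p under 0.05 (2.31% and 6.01% of all genes). At an adjusted p under 0.05 it was 0 of 36 with edgeR (0% of all genes) and 0 with DESeq2. In 3 genes every dose 1 library was above every control library (5.54% of all genes) and in 1, Oas3, below (5.5%). Ifi27 had 107, 101 and 122 CPM in dose 1 ovaries, against the control values given above, so that both doses were above every control library. On the log2 scale the fold change was 0.33 ± 0.08 (SE), with an edgeR adjusted p of 0.55. Rtp4, which encodes a chaperone with antiviral activity in mouse, had 8.93, 10.8 and 12.8 CPM in dose 1 ovaries, against 8.06, 8.67 and 6.21 CPM in controls, without overlap. Gbp2 had 56.8, 43.4 and 62.9 CPM in dose 1 ovaries, which overlapped the controls. The edgeR adjusted p of both was 0.569. Without control B 5 genes had an unadjusted p under 0.05 (14.1% of all genes), and without dose 1 C the median was 0.02.

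Between the doses in ovary, 32 of 36 genes were higher at dose 2 than at dose 1 by log2 fold change (49.9% of all genes), with a median of 0.30. With edgeR 1 was higher and 0 lower at an unadjusted p under 0.05 (2.47% and 3.55% of all genes), and 0 passed at an adjusted p under 0.05 (0%), with 0 in DESeq2. Gbp2 was the 1 gene in which every dose 2 library was above every dose 1 library (5.7% of all genes), and in 0 genes was every one below (7.46%). Xaf1 had 6.84, 7.14 and 10.4 CPM at dose 1, and its highest dose 1 library was just above its lowest dose 2 library (10.3 CPM). The log2 fold change was 0.76 ± 0.25 (SE), with an edgeR adjusted p of 0.809. Ifit3 had 8.06, 2.52 and 2.65 CPM at dose 2, against 2.67, 0.784 and 2.47 CPM at dose 1. Ifit3b had 4.58, 1.26 and 1.75 CPM at dose 2, against 0.779, 1.44 and 1.56 CPM at dose 1. In both, dose 2 A alone was clearly higher and the edgeR adjusted p was 0.828. Without dose 2 A the median of this comparison was 0.02.

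Whether a dose changed these genes differently in the 2 tissues was tested as an interaction over the 18 F1 libraries and 20336 genes. For dose 1, in testis minus ovary, the median difference of log2 fold changes was 0.44 over the 36 genes and 0.10 over all genes, and 29 of 36 were above 0. With edgeR 0 genes of the 36 passed at an adjusted p under 0.05 (0.00492% of all genes), 0 with DESeq2, and 3 had an unadjusted p under 0.05 (11.4% of all genes). These were Igtp with a difference of 1.44 ± 0.50 (SE), Gbp3 with 1.21 ± 0.48 and Parp14 with 0.81 ± 0.35, each with an edgeR adjusted p of 0.425. For dose 2 the median difference was -0.33 over the 36 genes and 0.14 over all genes, and 11 of 36 were above 0. Again 0 passed in edgeR (0%) and 0 in DESeq2, and 3 had an unadjusted p under 0.05 (5.32% of all genes). These were Ifit1 with -2.32 ± 0.94 (SE), Ifit3 with -1.82 ± 0.76 and Usp18 with -1.73 ± 0.72, each with an edgeR adjusted p of 0.729. For dose 2 the count at an unadjusted p under 0.05 was 0 without F1 ovary dose 2 A (4.06% of all genes), F1 ovary control C (12%) or F1 testis dose 2 A (5.76%), 1 without F1 testis control C (4.86%) and 5 without F1 testis dose 2 B (15.1%). For dose 1 it was 1 without F1 testis control B (8.9%) or C (9.27%) or F1 ovary dose 1 A (6.72%) or B (5.87%), 5 without F1 ovary control C (15.4%), 6 without F1 testis dose 1 B (8.62%) and 9 without F1 ovary dose 1 C (12.1%).

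**Figure D3:**
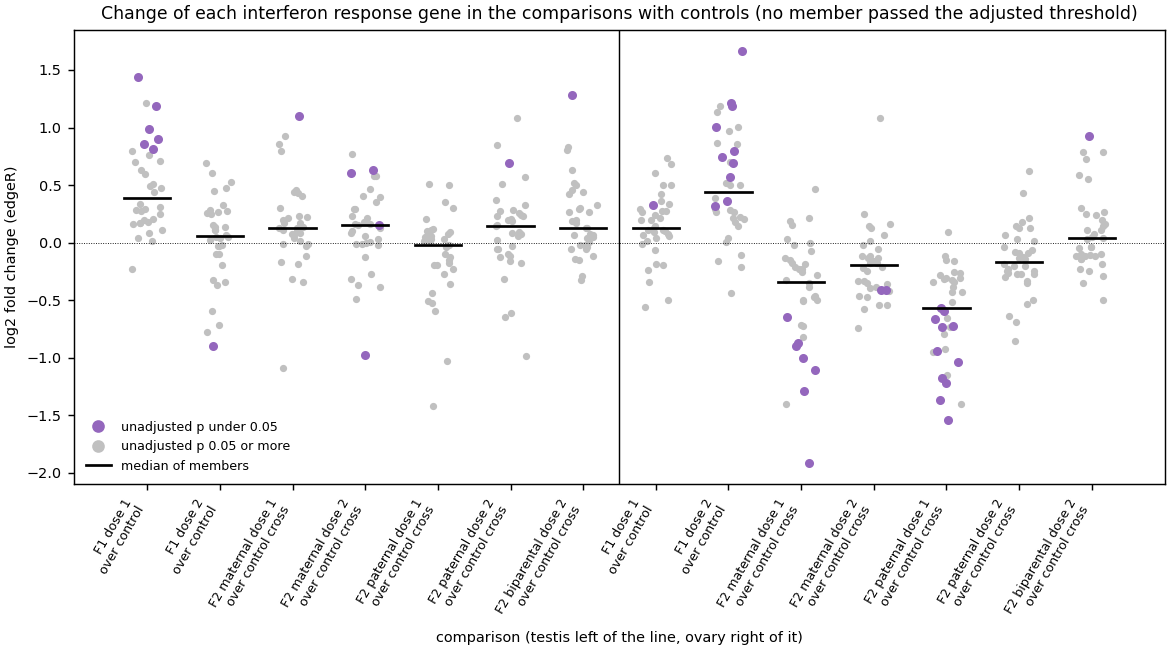
Log2 fold change of each interferon response gene in the comparisons against controls, with 1 point a gene, purple where the unadjusted p was under 0.05, a line at the median of the genes and the comparisons named on the axis with F1 or F2. The medians are 0.38 in F1 testis dose 1 and 0.44 in F1 ovary dose 2, and -0.57 and -0.34 in F2 ovary paternal and maternal dose 1, and no gene passed the edgeR threshold.

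In the F2 ovary the question was whether exposure of the parents was followed by differences in daughters. In every exposed cross but the biparental one, most of the 36 genes had a log2 fold change below 0 against the control cross. None passed the test. Such genes numbered 30 and 29 for maternal dose 1 and 2, and 35 and 26 for paternal dose 1 and 2. Biparental dose 2 had 17. The medians over all genes lay between -0.008 and 0.03 in these comparisons. All 5 exposed crosses are set against the same 3 control cross libraries, which differed among themselves, so their values stand side by side and not as repeats. The medians over the 36 genes were -0.34 for maternal dose 1, -0.19 for maternal dose 2, -0.57 for paternal dose 1, -0.16 for paternal dose 2 and 0.04 for biparental dose 2 on the log2 scale. The control cross itself spanned 2.77, 3.44 and 3.67 on the mean log2 CPM scale, and 7, 29 and 34 of the 36 genes lay above their median library in A, B and C.

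For paternal dose 1, 35 of 36 genes had a log2 fold change below 0, against 52.2% of all 17400 genes tested. With edgeR 11 were lower and 0 higher at an unadjusted p under 0.05 (2.27% and 2.7% of all genes), while 0 passed at an adjusted p under 0.05 (0.00575%), and 0 with DESeq2. In 10 genes every paternal dose 1 library was below every control cross library (6.4% of all genes) and in 0 above (6.9%). These 10 were Irf1, Irf7, Irf9, Ifih1, Oas1a, Oas2, Parp14, Gbp2, Ifi44 and Xaf1.

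Irf9, the DNA-binding subunit that joins STAT2 at the ISRE, had 28.4, 29.4 and 28.9 CPM in paternal dose 1 ovaries, against 32.2, 53.6 and 44.9 CPM in control cross ovaries. The paternal dose 1 libraries were nearly equal, while the control cross ranged widely above them. This was a log2 fold change of -0.59 ± 0.17 (SE), with an edgeR adjusted p of 0.543. Irf7, which raises the output of type I interferon genes, had 8.68, 8.93 and 8.43 CPM in paternal dose 1 ovaries, against 10.3, 14.9 and 17.8 CPM in the control cross. Its log2 fold change was -0.73 ± 0.27 (SE), with an edgeR adjusted p of 0.791. Oas2, an oligoadenylate synthetase gene, had 2.87, 2.65 and 2.57 CPM in paternal dose 1 ovaries, against 4.63, 5.70 and 8.46 CPM in the control cross. In all 3 genes the groups did not overlap, and control cross A was the control nearest to the paternal dose 1 libraries. The log2 fold change of Oas2 was -1.22 ± 0.43 (SE), with an edgeR adjusted p of 0.728.

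Ifit3b had the lowest p of the 36 in this comparison, yet its groups overlapped. It had 0.518, 0.757 and 0.922 CPM in paternal dose 1 ovaries, against 0.853, 2.93 and 2.63 CPM in the control cross, with a log2 fold change of -1.54 ± 0.43 (SE) and an edgeR adjusted p of 0.536. The control cross A library was within the paternal dose 1 range. By role the medians were -1.27 for the IFIT genes, -0.88 for the ISG15 system, -0.79 for the oligoadenylate synthetases, -0.57 for the GTPases and -0.45 for the transcription factors. Of the further gamma-induced genes 0 of 21 had a positive log2 fold change (median -0.53, 1 lower at an unadjusted p under 0.05), and of the further type I-induced genes 4 of 35 (median -0.30, 3 lower). Over all genes 52.2% were below 0, and 2.27% were lower at that threshold.

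These values varied with the control cross library left out. Without control cross C the median was -0.32 and 3 genes had an unadjusted p under 0.05 (4.36% of all genes), and without control cross A the median was -0.77 and 20 had one (6.36%). Without paternal dose 1 A 6 had one (4.58%), and without paternal dose 1 C 7 (3.32%). Leaving out maternal dose 1 C and biparental dose 2 C, which stood apart and are in neither group, 20 had one and the median was again -0.57. The share over all genes was then 7.87%, against 4.97% with all libraries. Macrophage markers summed to 296 to 400 CPM in paternal dose 1 ovaries and 358 to 476 CPM in the control cross. Of these markers 14 of 14 had a log2 fold change below 0 (median -0.22), where 52.2% of all genes had one. Natural killer cell markers summed to 2.14 to 7.57 CPM in paternal dose 1 and 3.97 to 11.3 CPM in control cross ovaries. The part of these cells in the values was not tested.

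For maternal dose 1, 6 of 36 genes had a positive log2 fold change (49.1% of all genes). With edgeR 7 were lower and 0 higher at an unadjusted p under 0.05 (4.82% and 8.28% of all genes), and 0 passed at an adjusted p under 0.05 (0%), with 0 in DESeq2. In 3 genes, Ifih1, Ifit2 and Ifit3, every maternal dose 1 library was below every control cross library (4.82% of all genes) and in 0 above (4.48%). Ifit2 had 4, 6.36 and 3.32 CPM in maternal dose 1 ovaries, against 8.49, 6.60 and 9.91 CPM in the control cross. The groups were separated by a narrow gap, and the log2 fold change was -0.88 ± 0.23 (SE), with an edgeR adjusted p of 0.351. Ifit3 had 0.884, 1.79 and 1.14 CPM in maternal dose 1 ovaries, against 1.89, 3.16 and 9.20 CPM in the control cross, and control cross C was far above the rest. On the log2 scale the fold change was -1.92 ± 0.52 (SE), with an edgeR adjusted p of 0.351.

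Maternal dose 1 C was the lowest F2 ovary library for 15 of the 36 genes. Its level was 4.48 CPM for Ifih1, which encodes the RNA sensor MDA5, 5.21 for Gbp7, 3.66 for Gbp3 and 12.5 for Parp14. Without it the median was -0.22 and 2 genes had an unadjusted p under 0.05 (4.91% of all genes), and without control cross C 2 had one (10.2%), with a median of -0.21. Without control cross A 12 had one (12.3%), and without maternal dose 1 B 4 (20.1%). Without maternal dose 1 A the median was -0.63 and 15 had one (27% of all genes), and edgeR then called 1 of the 36, Ifi27, with an adjusted p of 0.0376. In that fit 7.71% of all genes were called. All 14 macrophage markers had a log2 fold change below 0 here as well (median -0.32), where 49.1% of all genes were above 0. These markers summed to 285 to 399 CPM in maternal dose 1 and 358 to 476 CPM in control cross ovaries. Their part was not tested.

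Maternal dose 1 ovaries were also compared directly with paternal dose 1 ovaries, and the median log2 fold change over the 36 genes was 0.12. With edgeR 5 genes were higher and 1 lower at an unadjusted p under 0.05 (7.4% and 5.17% of all genes), the lower one being Ifit2, and 0 passed at an adjusted p under 0.05 (0.00575%), with 0 in DESeq2. In 7 genes every maternal dose 1 library was above every paternal dose 1 library (6.89% of all genes) and in 0 below (7.44%). Irf7 had 14.2, 21.1 and 12.6 CPM in maternal dose 1 ovaries, all above the paternal dose 1 values of 8.68, 8.93 and 8.43 CPM. Its log2 fold change was 0.88 ± 0.27 (SE), with an edgeR adjusted p of 0.374. The 5 GTPases all had a log2 fold change below 0 in this comparison, with a median of -0.16.

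The 3 F2 ovary crosses with dose 2 stayed nearer to the control cross by median, with most genes still below it in maternal and paternal dose 2. With edgeR, at an unadjusted p under 0.05, 0 genes were higher and 2 lower in maternal dose 2 (3.42% and 2.58% of all genes), the lower ones being Irf9 and Ifi27. In paternal dose 2 it was 0 higher and 0 lower (1.98% and 1.84%), and in biparental dose 2 1 higher, Xaf1, and 0 lower (5.24% and 3.76%). At an adjusted p under 0.05 it was 0 of 36 in each (0% of all genes) and 0 with DESeq2. Groups without overlap were found in 0 genes for maternal dose 2 (6.8% of all genes higher and 6.02% lower) and for biparental dose 2 (7.94% and 7.6%). For paternal dose 2 they were found in 0 genes higher (5.74%) and 1 lower (5.09%), Irf1. Irf1 had 54.6, 61.6 and 61.1 CPM in paternal dose 2, against 62.7, 71.2 and 79.1 CPM in control cross ovaries. Maternal dose 2 and paternal dose 2 differed in 0 genes at an unadjusted p under 0.05 (1.11% of all genes higher and 1.26% lower) and in 0 of 36 at an adjusted p under 0.05 (0%), with 0 in DESeq2. In 3 genes every maternal dose 2 library was below every paternal dose 2 library (5.32% of all genes) and in 0 above (5.7%). Without control cross A 8 genes had an unadjusted p under 0.05 in maternal dose 2 (6.92% of all genes), and the medians of maternal dose 2 and paternal dose 2 were both -0.02 without control cross C.

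Biparental dose 2 was split by 1 library. Its library C was the highest F2 ovary library for 23 of the 36 genes and above the median library for all 36. Igtp had 13.3, 11.5 and 64.6 CPM in biparental dose 2 ovaries, against 13.2, 23.3 and 59.4 CPM in the control cross. Zbp1, a sensor that can start cell death, had 1.25, 1.36 and 14.7 CPM in biparental dose 2 and 1.56, 3.18 and 6.73 CPM in the control cross. Cxcl10 had 3.65, 1.75 and 16.1 CPM in biparental dose 2 and 1.81, 2.70 and 13.2 CPM in the control cross. In all 3 genes library C of each group was far above A and B, and the groups overlapped. Xaf1 had 8.43, 22.6 and 23.5 CPM in biparental dose 2 ovaries, against 7.36, 10.2 and 11.1 CPM in the control cross, so that here B and C were both high. On the log2 scale the fold change was 0.92 ± 0.37 (SE), with an edgeR adjusted p of 0.521.

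Without biparental dose 2 C the median of biparental dose 2 over control cross was -0.27 instead of 0.04, and 4 genes had an unadjusted p under 0.05 (6.29% of all genes). It was -0.12 without control cross A. In that library T cell markers summed to 73.0 CPM, against 9.09 to 23.4 in the other F2 ovary libraries, and natural killer cell markers to 28.7 CPM, against 1.49 to 11.3. B2m, the light chain of class I molecules, stood at 500 CPM, the highest of all F2 ovary libraries. Control cross C had the second highest natural killer marker sum, 11.3 CPM, and was the deepest F2 ovary library. The part of these cells and of depth in the values was not tested.

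**Figure D4:**
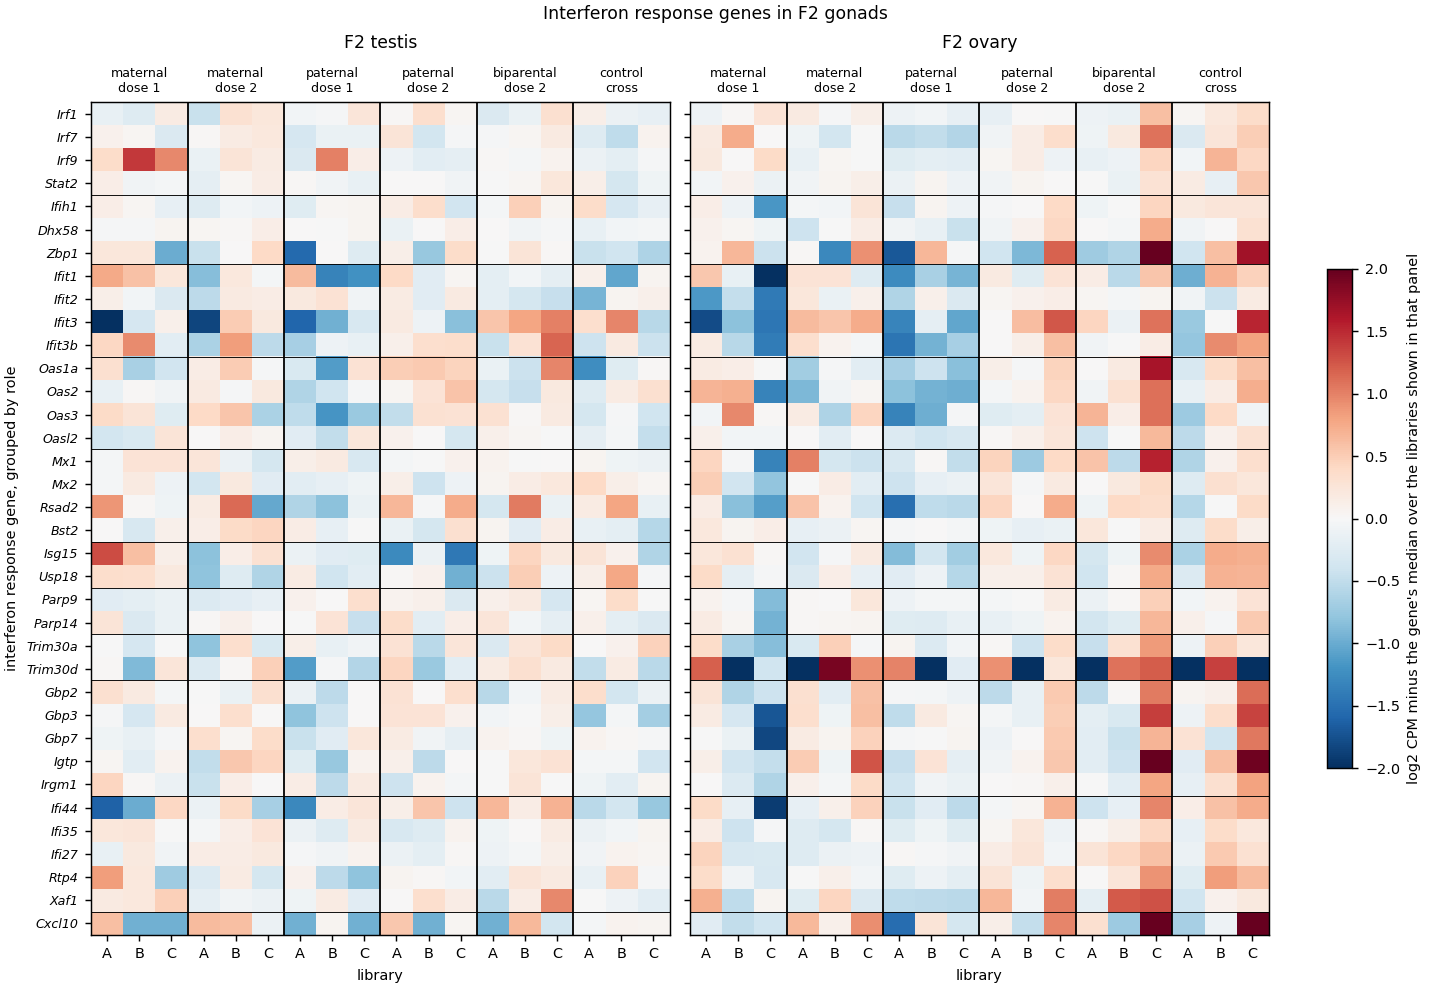
Log2 CPM of each interferon response gene in every F2 library minus the median of that gene over the F2 libraries of the tissue, with genes down the page by role, libraries across in the order maternal dose 1, maternal dose 2, paternal dose 1, paternal dose 2, biparental dose 2 and control cross, and colours that saturate at 2 on the log2 scale. In ovary biparental dose 2 C and control cross C are high across roles and paternal dose 1 is low, while in testis high and low values do not follow the crosses.

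Of the most abundant genes in ovary, Bst2 had 263, 235 and 250 CPM in maternal dose 1 ovaries, 203, 210 and 233 in maternal dose 2, 223, 228 and 222 in paternal dose 1, 214, 202 and 207 in paternal dose 2, 267, 227 and 252 in biparental dose 2 and 191, 292 and 246 CPM in the control cross. The control cross range covered every other library. Ifi27 had 137, 80.9 and 82.5 CPM in maternal dose 1 ovaries, 84.5, 94.0 and 94.8 in maternal dose 2, 103, 100 and 96.8 in paternal dose 1, 112, 122 and 97.7 in paternal dose 2, 121, 135 and 152 in biparental dose 2 and 93.1, 146 and 125 CPM in the control cross. Gbp2 had 75.0, 41.3 and 47.2 CPM in maternal dose 1 ovaries, 78.6, 54.3 and 94.5 in maternal dose 2, 62.1, 61.5 and 58.8 in paternal dose 1, 43.9, 56.6 and 90.3 in paternal dose 2, 43.7, 63.8 and 130 in biparental dose 2 and 65.3, 67.7 and 137 CPM in the control cross. Gbp2 was high in the same C libraries of biparental dose 2 and the control cross as Igtp, and Bst2 was not.

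F2 testis values lay close to the control cross. The medians over 35 genes (Cxcl10 did not pass the filter on low counts) were 0.13 for maternal dose 1, 0.15 for maternal dose 2, -0.02 for paternal dose 1, 0.14 for paternal dose 2 and 0.13 for biparental dose 2, again against shared control cross libraries. With edgeR 0 genes passed at an adjusted p under 0.05 in any of them, where 0.0103%, 0.372%, 0.201%, 0.00516% and 0.0155% of all genes did in the same order. At an unadjusted p under 0.05 maternal dose 1 had 1 gene higher and 0 lower (3.32% and 3.22% of all genes), maternal dose 2 had 3 higher and 1 lower (8.27% and 7.48%), and paternal dose 1 had 0 either way (5.74% higher and 6.73% lower). Paternal dose 2 had 1 higher and 0 lower (2.47% and 2.55%), as had biparental dose 2 (3.16% and 3.86%). DESeq2 called 1 gene in maternal dose 1 and 0 in the other crosses.

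Irf9 in sons of dose 1 mothers had the lowest p of the 36 genes in F2 testis. Its levels were 6.13, 12.7 and 9.29 CPM in maternal dose 1 testes, against 4.35, 4.12 and 4.66 CPM in control cross testes. The groups did not overlap, and the mean was 9.37 ± 3.29 CPM in maternal dose 1 and 4.38 ± 0.269 CPM in control cross testes (SD, n = 3 each). The log2 fold change was 1.10 ± 0.26 (SE), with an edgeR adjusted p of 0.557. DESeq2 called it with an adjusted p of 0.0288 and called 0.0632% of all genes. Paternal dose 1 testes had 3.87, 9.60 and 5.19 CPM, so that 1 library of another cross reached the same level, and in the other crosses Irf9 ran between 4.08 and 5.63 CPM. In vM21 an exon of Irf9 overlaps Rnf31 on the same strand, so counts of the 2 could mix. Stat2, its partner in the ISRE-binding complex, had 11, 9.49 and 9.68 CPM in maternal dose 1 testes, against 10.8, 7.84 and 9.40 CPM in the control cross.

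Other genes with low p in F2 testis were Bst2, Gbp3 and Ifi44. Bst2 had 3.66, 4.39 and 4.52 CPM in maternal dose 2 testes, against 3, 2.90 and 2.22 CPM in the control cross, without overlap. Its log2 fold change was 0.63 ± 0.18 (SE), with an edgeR adjusted p of 0.143. Gbp3 had 1.78, 1.79 and 1.56 CPM in paternal dose 2 testes, against 0.837, 1.44 and 0.900 CPM in the control cross, with a log2 fold change of 0.70 ± 0.24 (SE) and an edgeR adjusted p of 0.946. Ifi44, which codes for a cytoplasmic antiviral protein, averaged 0.398 ± 0.0895 CPM in biparental dose 2 and 0.162 ± 0.0288 CPM in control cross testes (SD, n = 3 each), with an edgeR adjusted p of 0.692. All 3 genes stood at less than 5 CPM in these groups. Counts of genes without overlap were 4 higher and 3 lower for maternal dose 1 (5.71% and 6.14% of all genes), 5 and 2 for maternal dose 2 (10.9% and 10.6%), 1 and 2 for paternal dose 1 (8.65% and 9.04%), 3 and 0 for paternal dose 2 (5.17% and 5.53%) and 5 and 0 for biparental dose 2 (5.96% and 6.61%).

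Dhx58, the highest of the 36 in testis, had 44.5, 44.7 and 47.1 CPM in maternal dose 1 testes, 46.9, 46.5 and 50.1 in maternal dose 2, 45.6, 45.4 and 47.2 in paternal dose 1, 41.5, 46.0 and 49.8 in paternal dose 2, 45.9, 43.3 and 44.6 in biparental dose 2 and 40.9, 43.9 and 44.4 CPM in the control cross. Maternal dose 1, maternal dose 2 and paternal dose 1 did not overlap the control cross, by gaps of a few CPM or less. Stat2 ran between 7.84 and 11.6 CPM and Ifi27 between 11.4 and 14.9 CPM over the 18 F2 testis libraries.

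Between maternal and paternal crosses in testis, 3 genes were higher and 0 lower for dose 1 at an unadjusted edgeR p under 0.05, Oas3, Isg15 and Irf9 (6.18% and 5.37% of all genes), and for dose 2 1 was higher, Ifi27, and 0 lower (9.11% and 6.91%). Groups without overlap were found in 5 genes higher and 1 lower for dose 1 (7.93% and 8.33%) and in 1 and 1 for dose 2 (11.2% and 9.73%). At an adjusted p under 0.05 it was 0 for either dose (0.0413% and 0.119% of all genes), and 0 with DESeq2. For dose 1 the median log2 fold change was 0.17, with 28 of 35 genes above 0. For dose 2 it was -0.07, with 17 of 35 above 0. Over all genes the medians were -0.003 and 0.006. Oas3 averaged 0.683 ± 0.161 CPM in maternal dose 1 and 0.331 ± 0.0857 CPM in paternal dose 1 testes (SD, n = 3 each), with an edgeR adjusted p of 0.292. Ifi27 had 14.4, 14.5 and 14.9 CPM in maternal dose 2 testes, against 12.0, 11.4 and 13.3 CPM in paternal dose 2 testes. The groups were separated by about 1 CPM, and the log2 fold change was 0.25 ± 0.10 (SE), with an edgeR adjusted p of 0.214.

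Trim30d differed between ovary libraries without regard to the groups. It encodes a protein of the TRIM30 family and lies near Trim30a on chromosome 7. Over the 27 ovary libraries of both generations, 12 had 0 to 0.141 CPM and 15 had 1.12 to 5.69 CPM, with none between. The 3 libraries at 0 allow up to 0.0720 to 0.0811 CPM each (3 counts). In F1 ovary it had 0, 2.94 and 4.04 CPM in controls, 0.0223, 0.0212 and 4.90 CPM at dose 1 and 0.121, 0 and 5.02 CPM at dose 2. In F2 ovary it had 3.47, 0.0812 and 1.12 CPM in maternal dose 1, 0.0464, 5.69 and 2.84 CPM in maternal dose 2, 3.01, 0.0223 and 1.26 CPM in paternal dose 1, 2.84, 0.0498 and 1.75 CPM in paternal dose 2, 0, 3.20 and 3.49 CPM in biparental dose 2 and 0.0544, 3.90 and 0.141 CPM in the control cross. Each of the 9 ovary groups held at least 1 low and 1 high library. Testis libraries ran between 0.148 and 0.959 CPM without such a gap. Trim30a had 4.71 to 15.4 CPM in the ovary libraries, and 5.53% of the windows of Trim30d occurred in Trim30a.

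**Figure D5:**
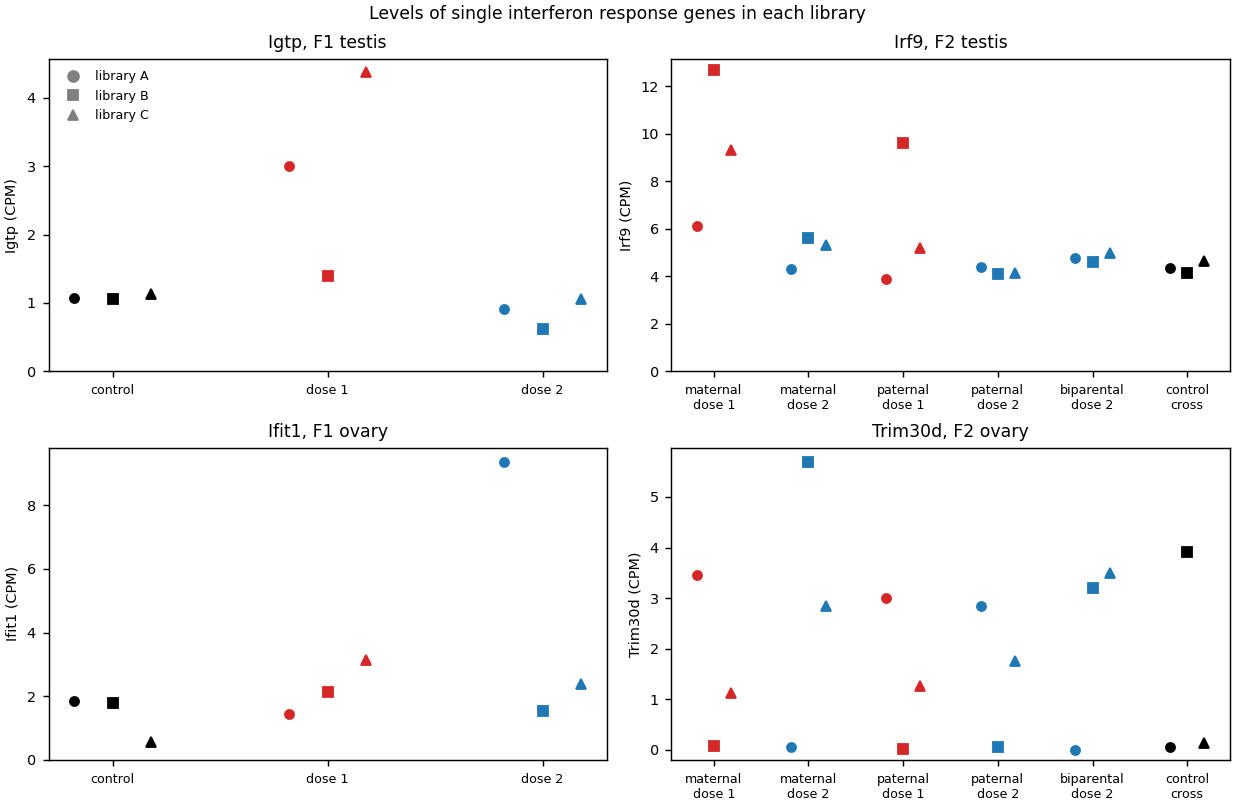
CPM per library, with 1 point a library and shapes for A, B and C, for Igtp in F1 testis, Irf9 in F2 testis, Ifit1 in F1 ovary and Trim30d in F2 ovary, in black for controls, red for dose 1 and blue for dose 2. Igtp is high in dose 1 A and C (3.01 and 4.38 CPM), Irf9 in maternal dose 1 and 1 paternal dose 1 library, Ifit1 in dose 2 A alone (9.37 CPM), and Trim30d is near 0 or above 1 CPM in every group.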

How the data were processed

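Total RNA was extracted with TRIZOL and libraries were made with an Illumina stranded mRNA ligation kit and read at 100 nt, per the labels' protocols. The authors deposited raw read counts per gene, 26264 genes in 27 libraries of each tissue, without normalization. Their submitters' processing notes list SAMtools 1.13 and the aligners TopHat2 2.1.1 and Bowtie2 2.4.5, beside featureCounts 2.0.3 and the mouse build mm39. No source used here states the annotation or the strand setting of counting.

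From these counts, edgeR 4.0.16 in R 4.3.3 was run with 1 fit per tissue and generation (9 F1 or 18 F2 libraries), trimmed mean of M values, a filter on low counts (filterByExpr with a minimum count of 10), a term for each group and the quasi-likelihood test, with Benjamini-Hochberg adjustment over all genes tested and a threshold of 0.05. In testis 19025 (F1) and 19379 (F2) genes were tested, and in ovary 17896 (F1) and 17400 (F2). Log2 CPM used a prior count of 2. The procedure was tested on simulated data. Alternatives were DESeq2 1.42.0, size factor scaling, no filter, the compared libraries alone, the letter as a block, leaving out each library, and, chosen after seeing the data, leaving out libraries that stood apart. Transcript lengths and overlaps came from GENCODE vM21 and promoters from RefSeq on GRCm38.p6, an older build than the counts, so coordinates are given for promoters only. P-values measure the spread between these libraries, which may be technical. Total counts per testis library were 31816000 to 122400000 (F1) and 31554000 to 48237000 (F2), and per ovary library 36641000 to 57383000 (F1) and 37913000 to 84721000 (F2).

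The 36 genes and the pathway and marker lists were chosen with earlier results of these data known. All 36 could be named, and other genes where they passed the test or led their pathway list by level. Ifna1, Ifnb1, Ifng and B2m were chosen after their values were seen, and 1 pathway gene is not reported here. Values in every library are given for the 3 genes with the lowest p in each F1 comparison. They are also given for genes with a library over 4 times the median of the others. The 3 most abundant genes by median CPM in each tissue and generation are shown too. Of these, Stat2 in F1 ovary and Stat2 and Ifi27 in F2 testis have ranges only. Replicates were compared for duplicates, and none agreed within sampling noise (chi-square per degree of freedom of 7.43 or more).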

Additional observations from a re-analysis of the deposited data

Results flagged for a closer look

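Ifi27 was picked out because its values went opposite ways in the 2 tissues of the F2 mice. In maternal dose 2 against paternal dose 2 the log2 fold change was 0.25 in testis and -0.28 in ovary, a difference of 0.53, and the samples of the 2 groups did not overlap in either tissue. Testes had 14.4, 14.5 and 14.9 CPM in maternal dose 2 and 12.0, 11.4 and 13.3 CPM in paternal dose 2. Ovaries had 84.5, 94.0 and 94.8 CPM in maternal dose 2 and 112, 122 and 97.7 CPM in paternal dose 2. With edgeR neither passed, with adjusted p of 0.214 in testis and 1.00 in ovary, and the difference between the tissues itself was not tested. It is 1 of 245 pairs of a gene and a contrast that were compared between tissues. In this contrast 11.2% of all genes were higher without overlap in testis, and 5.32% were lower without overlap in ovary. The share of all genes with both was not computed, so this pair is not set apart from other genes.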

How the results depend on the processing

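Counts of the 36 genes past the edgeR threshold were 0 in every main fit, and 3 of 265 alternative counts differed. These were the DESeq2 counts of 1 for Igtp in F1 testis dose 2 over dose 1 and 1 for Irf9 in F2 testis maternal dose 1, and a leave-one-out range of 0 to 1 in F2 ovary maternal dose 1, with 1 (Ifi27) without maternal dose 1 A. Of 233 alternative medians 6 differed by more than the spread between libraries and 8 had the other sign. The leave-one-out ranges of the median log2 fold change were -0.011 to 0.17 for F1 testis dose 2 over control. In F2 testis they were 0.059 to 0.19 for maternal dose 1, -0.14 to -0.0042 for paternal dose 1, 0.046 to 0.12 for paternal dose 2, 0.089 to 0.26 for biparental dose 2, and 0.14 to 0.29 for maternal dose 1 over paternal dose 1. The cause was not tested. No median changed sign with size factor scaling, without the filter, with DESeq2 or with the 6 compared libraries alone. With those 6 alone, the count at an unadjusted p under 0.05 was 3 instead of 6 in F1 testis dose 2 over dose 1 (2.68% of all genes), 4 instead of 7 in F2 ovary maternal dose 1 (3.08%) and 17 instead of 11 in F2 ovary paternal dose 1 (7.43%).

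The labels do not say that the letters A to C mark a shared litter or day. Correlations between the deviations of same-letter libraries ran from -0.37 to 0.37 in F1 testis and from -0.58 to 0.45 in F1 ovary. Their medians were 0.009 in F1 testis, -0.22 in F1 ovary, 0.041 in F2 testis and 0.005 in F2 ovary. Between libraries of other letters the medians were 0.019, 0.18, -0.018 and -0.006 in that order. These values do not settle whether the letters mark pairs. With the letter as a replicate block, 0 genes passed in every comparison, and the median was 0.31 in F1 testis dose 1 over control (9 genes with an unadjusted p under 0.05, against 6) and 0.41 in F1 ovary dose 2 over control (6, against 10). In F2 ovary maternal dose 1 it was -0.29 (3, against 7).

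Many of these genes stood near 1 CPM in testis, where few counts a library limit the precision of each value. Whether libraries of a group are separate animals is not stated.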
